A study of Mus musculus with 10 samples.

Results

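Open chromatin was compared between lymphoid-primed multipotent progenitors (LMPP) of wild-type mice and monocyte-dendritic cell progenitors (MDP) of IRF8-deficient mice. The comparison used 4 of the 10 libraries of the series, 2 of WT LMPP and 2 labelled IRF8KO MDP. Peaks of the 4 lists on chromosomes 1 to 19 and X were merged at a minimum overlap of 1 bp into 87713 regions, against 114366 regions when all 10 lists were merged. A region was gained when both IRF8KO MDP libraries and neither LMPP library had a peak in it, lost in the reverse case, and shared when all 4 libraries had one.

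All cells came from bone marrow of C57BL/6 mice and were enriched by MACS before sorting by FACS. LMPP were wild type and were sorted as Lin– CD117+ Sca-1+ CD135+. The IRF8KO MDP carried the genotype label IRF8-deficient and were sorted as Lin– Sca-1– CD117+ IL-7R– CD115+. The labels name no allele for the deficiency and no age. The series also holds 2 libraries each of wild-type MDP, of common dendritic cell progenitors (CDP) and of long-term hematopoietic stem cells (LT-HSC), all wild type. These 6 libraries took no part in choosing the regions and were used only to see where else the regions were open. For LMPP, 1 label field gives the cells as short-term hematopoietic stem cells. The titles and the series text name LMPP, and the titles were followed. The series text calls the wild-type libraries biological duplicates and does not mention the knockout libraries, and no label ties a library to an animal, so the spread between replicates may be technical.

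IRF8 belongs to the interferon regulatory factors, a family of transcription factors, and binds DNA with partners such as PU.1. It is known for driving monocyte and dendritic cell development and for restraining the neutrophil path, on which C/EBP factors act. LMPP retain access to stem cell and lymphoid genes, while MDP are committed towards monocytes and dendritic cells. ATAC-seq marks open DNA by cutting it with a transposase, and the open sites lie both at promoters and at distal enhancers.

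Sequences of neutrophil granule gene promoters are printed here because 8 of the 18 neutrophil and granule genes with a promoter window had a gained region over it. Of all 17274 genes with a window, 115 had a gained region over it. The windows run from 250 bases before to 50 bases after a gene's start, 300 in all, from RefSeq on GRCm38.p6, and are written 5′ to 3′ on the gene's strand. In the first 4, capitals mark the C/EBP letters TTGCNNAA on either strand. The genes encode ficolin B (Fcnb, chr2:28084829-28085128, minus strand), lipocalin 2 (Lcn2, chr2:32387690-32387989, minus strand), the calprotectin subunit S100a9 (chr3:90695672-90695971, minus strand) and the membrane protein Ms4a3 (chr19:11640802-11641101, minus strand).
Fcnb: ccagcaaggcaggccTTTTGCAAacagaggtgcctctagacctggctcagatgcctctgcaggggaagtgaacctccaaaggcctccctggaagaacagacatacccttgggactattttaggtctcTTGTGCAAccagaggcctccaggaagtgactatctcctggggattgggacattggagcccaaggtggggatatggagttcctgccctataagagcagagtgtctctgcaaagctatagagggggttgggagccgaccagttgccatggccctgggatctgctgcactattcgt
Lcn2: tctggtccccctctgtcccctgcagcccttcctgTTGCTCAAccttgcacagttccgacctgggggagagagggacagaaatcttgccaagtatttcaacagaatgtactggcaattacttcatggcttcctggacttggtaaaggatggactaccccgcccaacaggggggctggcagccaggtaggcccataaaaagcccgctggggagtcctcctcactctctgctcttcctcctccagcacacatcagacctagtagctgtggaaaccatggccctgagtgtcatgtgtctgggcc
S100a9: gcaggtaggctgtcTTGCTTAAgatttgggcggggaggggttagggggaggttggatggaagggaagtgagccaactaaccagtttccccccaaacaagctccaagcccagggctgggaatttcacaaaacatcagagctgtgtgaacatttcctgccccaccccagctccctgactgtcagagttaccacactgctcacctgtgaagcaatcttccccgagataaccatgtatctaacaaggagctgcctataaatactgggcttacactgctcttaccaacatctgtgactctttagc
Ms4a3: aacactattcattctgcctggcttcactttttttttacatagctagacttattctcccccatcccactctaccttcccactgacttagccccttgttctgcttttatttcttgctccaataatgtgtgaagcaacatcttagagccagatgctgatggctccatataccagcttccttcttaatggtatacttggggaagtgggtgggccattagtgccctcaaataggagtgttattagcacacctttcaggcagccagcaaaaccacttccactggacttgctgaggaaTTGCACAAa

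In the next pair, capitals mark the PU.1 letters GAGGAAGT on either strand. They belong to neutrophil elastase (Elane, chr10:79886062-79886361, plus strand) and the other calprotectin subunit (S100a8, chr3:90668821-90669120, plus strand). Neither of these windows held the C/EBP letters, and the windows of the other two genes, Ctsg and Camp, held neither motif and are not printed.
Elane: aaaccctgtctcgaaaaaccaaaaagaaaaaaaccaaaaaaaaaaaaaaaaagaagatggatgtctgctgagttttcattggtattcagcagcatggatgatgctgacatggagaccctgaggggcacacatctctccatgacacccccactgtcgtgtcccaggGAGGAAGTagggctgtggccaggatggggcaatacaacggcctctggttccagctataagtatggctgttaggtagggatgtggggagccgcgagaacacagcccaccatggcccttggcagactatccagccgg
S100a8: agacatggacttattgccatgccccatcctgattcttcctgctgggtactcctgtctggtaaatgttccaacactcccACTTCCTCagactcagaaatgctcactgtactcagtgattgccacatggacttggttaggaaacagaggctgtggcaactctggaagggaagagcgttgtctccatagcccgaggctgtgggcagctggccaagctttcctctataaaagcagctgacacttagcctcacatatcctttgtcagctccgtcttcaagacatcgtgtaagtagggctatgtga

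Among promoters with a lost region, those of Tek, a receptor kinase of stem cells and endothelium (chr4:94739039-94739338, plus strand), and Cpa3, a mast cell protease (chr3:20242132-20242431, minus strand), held the GATA letters AGATAA, marked by capitals. These letters were no more frequent among lost promoters, at 8.90% of 697 windows, than among all windows, at 9.68%, or gained ones, at 13.4%. Of other windows with a lost region, those of Dntt and H2-Eb1 also held the letters, 1 match each. The windows of Gata2, Mecom, Itga2b, Lck and Rag1, which also had a lost region, held none. Tek and Cpa3 are shown as examples of lost promoters. A match of letters is a description of the sequence and not evidence of binding.
Tek: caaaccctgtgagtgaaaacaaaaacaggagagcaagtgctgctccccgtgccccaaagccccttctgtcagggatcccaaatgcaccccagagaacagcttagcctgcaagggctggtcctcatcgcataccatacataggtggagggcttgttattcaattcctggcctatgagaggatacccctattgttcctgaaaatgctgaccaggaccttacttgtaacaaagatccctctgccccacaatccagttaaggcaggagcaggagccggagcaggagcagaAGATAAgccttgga
Cpa3: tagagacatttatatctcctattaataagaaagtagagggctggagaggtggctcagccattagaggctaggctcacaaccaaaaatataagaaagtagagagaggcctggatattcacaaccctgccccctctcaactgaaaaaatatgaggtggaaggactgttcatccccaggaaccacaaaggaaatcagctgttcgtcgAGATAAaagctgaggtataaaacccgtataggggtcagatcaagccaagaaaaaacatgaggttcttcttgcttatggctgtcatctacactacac

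Of the 87713 regions, 8953 were gained and 17027 were lost, 10.2% and 19.4% of the regions respectively. Another 32137 regions, 36.6%, were shared by all 4 libraries, and the remaining 29596 had a peak in some other combination, most often in 1 library alone (11884 in 1 LMPP library and 7374 in 1 IRF8KO MDP library). The lists of the 2 groups also differed in length. LMPP lists held 63349 and 64181 peaks, and IRF8KO MDP lists held 50728 and 54277. Total tags were 6478095 and 5789312 in LMPP against 4790046 and 5313729 in IRF8KO MDP, and the percent of tags within peaks was 46.4 and 47.8 against 43.7 and 43.9. In each of these measures the groups did not overlap, with an exact permutation p of 0.333 (two-sided), the smallest that 2 against 2 libraries allow. When every list was shortened to its first 50711 peaks, 11033 of 75510 regions were gained and 11564 were lost, 14.6% and 15.3%. Lists of equal length bring these counts close to each other by construction. The cut therefore cannot tell list length from a true surplus of lost regions. Gained regions numbered 13851 without IRF8KO MDP replicate 1 and 4864 when only the first 50% of each list was used; lost regions then numbered 19133 and 9470.

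In the step from LMPP to wild-type MDP, 12229 of 92726 regions were gained and 12258 were lost, 13.2% and 13.2%. With lists of equal length these counts were 10421 and 10413. Both comparisons use the same LMPP libraries, so their counts are given side by side and no overlap between them is drawn. A region without a peak is one that stayed below the caller's threshold in that library, and in bulk samples a smaller number of cells with an open site cannot be told apart from less opening per cell.

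Within the comparison, replicates shared more regions than LMPP shared with IRF8KO MDP. Over the 87713 regions, the share of regions detected by either library that both detected (the Jaccard index) was 0.763 for the LMPP replicates and 0.751 for the IRF8KO MDP replicates. Between an LMPP and an IRF8KO MDP library it was 0.471 to 0.477. Between an IRF8KO MDP and a wild-type MDP library it was 0.688 to 0.704, and between an IRF8KO MDP and a CDP library 0.621 to 0.638. Peaks of wild-type MDP and CDP outside the 87713 regions do not enter, which raises their values relative to those between LMPP and IRF8KO MDP. For example, CDP replicate 1 had 69585 peaks on these chromosomes and a peak in 52471 of the regions. LMPP replicate 1 had 63338 and 62487. The index also moves with list length, which differed between groups.

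Most gained regions were also open in wild-type MDP. In wild-type MDP replicate 1, 62.7% of the 8953 gained regions had a peak, and in replicate 2, 66.6%, a mean of 64.7% ± 2.77 (SD, n = 2). Both replicates detected 5018 gained regions, 56.0% (95% Wilson interval 55.0 to 57.1, counting error only), and neither detected 2388, 26.7%. CDP libraries detected 47.4% and 43.9% of the gained regions. LT-HSC libraries detected 2.42% and 9.43%, so gained regions were for the most part undetected in stem cells too. LT-HSC replicate 1 stands apart in its peak list, with 31325 peaks and 19.3% of tags within peaks, against 52147 and 38.1% in replicate 2. The most frequent pattern among gained regions, at 2637 regions or 29.5%, was detection in all 4 wild-type MDP and CDP libraries without LT-HSC. Another 2014, 22.5%, had a peak in none of the 6 libraries, and 1234 were found in both wild-type MDP libraries alone.

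Most lost regions were undetected in wild-type MDP as well. Wild-type MDP libraries detected 29.1% ± 0.814 (SD, n = 2) of the 17027 lost regions. Neither library detected 10793 of them, 63.4% (62.7 to 64.1), and both detected 3686, 21.6% (21.0 to 22.3). The last set holds the regions of LMPP that were present in wild-type MDP and had no peak in either IRF8KO MDP library. CDP libraries detected 32.1% ± 1.92 (SD, n = 2) of the lost regions. The LT-HSC libraries detected 24.8% and 51.4%, and both did so at 4071 regions, 23.9%. Regions with a peak in none of the 6 other libraries, and thus found in LMPP alone, numbered 4324, 25.4%, and regions found in LMPP and both LT-HSC libraries alone numbered 2320. By comparison, 95.3% of the shared regions were detected by both wild-type MDP libraries. In the plot of detection by library, gained regions lie above lost ones in wild-type MDP and CDP and below them in LT-HSC. With lists of equal length the mean in wild-type MDP was 56.1% of gained and 21.8% of lost regions.

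**Figure D1:**
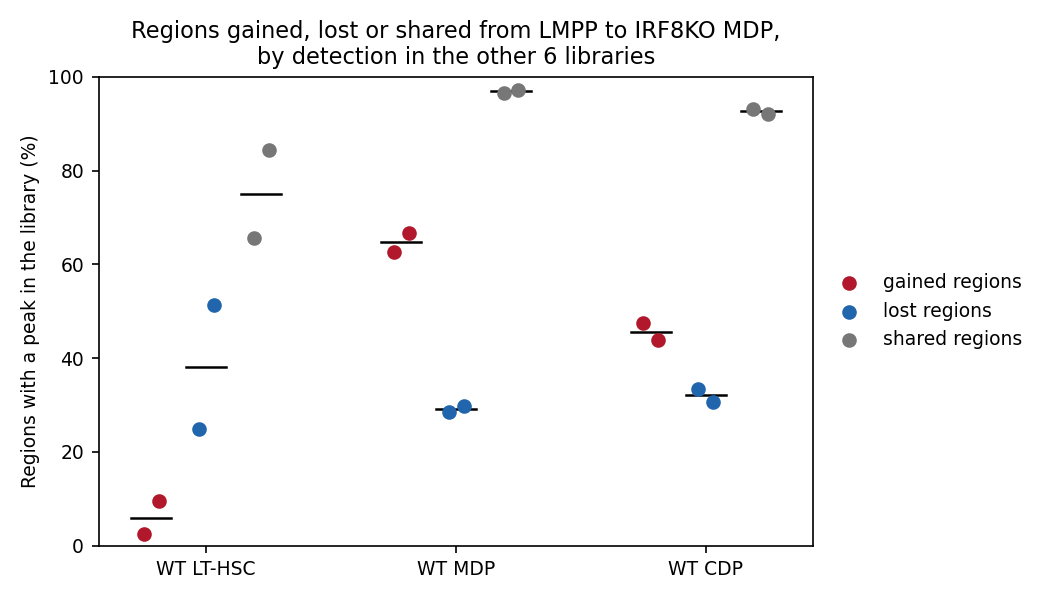
Percent of gained (8953), lost (17027) and shared (32137) regions with a peak in each of the 6 libraries that did not define them. Points are libraries and bars are means of 2. Gained regions had a peak in 62.7% and 66.6% of cases in wild-type MDP, and lost regions in 28.6% and 29.7%.

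Position in the peak list separated these classes further. Row order was taken to follow peak strength, which the files do not state; it was reproducible, with a Spearman correlation across regions of 0.910 between the LMPP replicates and 0.911 between the IRF8KO MDP replicates (regions share their library and are not independent). Among the 2239 gained regions with the earliest positions, 83.9% had a peak in both wild-type MDP libraries and 8.31% in neither. Among the 2238 with the latest positions, 34.7% had a peak in both and 42.2% in neither. Detection of gained regions in both LT-HSC libraries stayed between 1.52% and 3.08% across the 4 groups. Of the 4257 earliest lost regions, 49.8% were present in both LT-HSC libraries against 8.39% of the 4257 latest, while detection in both wild-type MDP libraries went from 29.8% to 15.1%. If row order follows strength, late positions lie near the detection threshold.

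**Figure D2:**
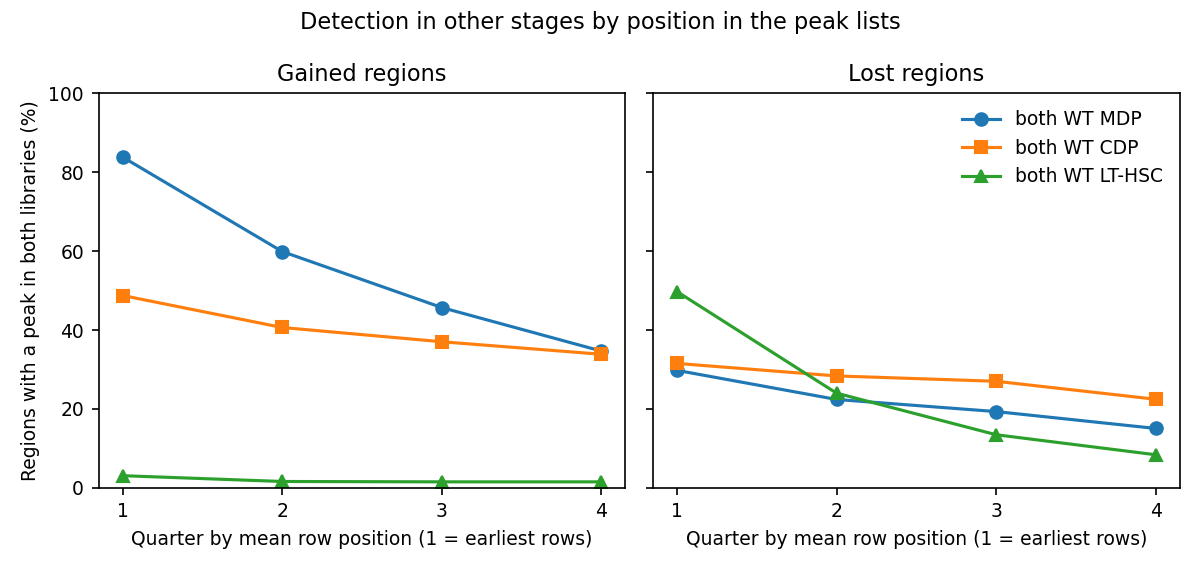
Percent of gained (left) and lost (right) regions with a peak in both libraries of wild-type MDP, CDP or LT-HSC, in 4 equal groups ordered by mean position in the peak lists, earliest first. Detection of gained regions in both wild-type MDP libraries goes from 83.9% to 34.7%, and detection of lost regions in both LT-HSC libraries from 49.8% to 8.39%.

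Gained and lost regions were mostly distal. Gene ends, of protein-coding genes, were at most 1 kb away for 4.62% of gained, 6.30% of lost and 31.8% of shared regions. At up to 2.5 kb the order of the first pair turned, at 11.8% of gained and 10.7% of lost regions. The centre lay over 100 kb from any protein-coding gene in 7.45% of gained, 13.5% of lost and 4.75% of shared regions. Median widths were 637, 669 and 1154 bp. By chromosome, the share of regions gained ran from 7.63% on X to 11.8% on chromosome 11, and the share lost from 15.3% on chromosome 11 to 24.3% on X.

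The gained regions earliest in the lists were distal and were also open in wild-type MDP. The first, chr9:85496509-85497548 in mm10, lay 170 kb from Tent5a, and the second, chr2:73037170-73039856, lay 54.3 kb from Ola1. The next lay 45.6 kb from Cop1, 24.5 kb from Nfatc2, which encodes a calcium-regulated transcription factor, and inside Smyd3. All 5 had a peak in both wild-type MDP and both CDP libraries. The earliest lost region, chr2:98662116-98663070, had no gene within 100 kb and was among the first 539 peaks in each of the 7 libraries that held it. It had a peak in both wild-type MDP and both CDP libraries, and no filter for high-signal repeat sites was applied here. The second, chr1:42982793-42984809, lay inside Gpr45, had a peak in both LT-HSC libraries and none in wild-type MDP or CDP. The others lay 306 kb from Ndufa4, 183 kb from Runx1t1 and 67.7 kb from Psat1.

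Each region was assigned to the nearest protein-coding gene within 100 kb, which covered 91.8% of regions and 16593 genes. Of these genes, 3115 had more gained than lost regions, 5278 had more lost than gained, and 8200 had as many of each or none; the median difference was 0. Per region, 10.3% of the regions assigned to a gene were gained and 18.3% lost, which is the background for every gene and list that follows. Since the rule compares LMPP with IRF8KO MDP, the difference between their counts at a gene is a description, and the other 6 libraries are the values it did not use. Peaks of these 6 libraries outside the regions compared do not enter their counts. With lists of equal length the counts of genes turned to 4269 with more gained and 3733 with more lost regions.

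The Irf8 gene itself was open in the IRF8KO MDP libraries. The region over its promoter (chr8:120735951-120736773) had a peak in all 4 libraries of the comparison and in both wild-type MDP libraries, so the peak lists give no check of the genotype label. Irf8 had 6 gained and 3 lost among 24 regions, with peaks in 8 and 9 in LMPP, 14 and 17 in IRF8KO MDP, 16 and 14 in wild-type MDP, 19 and 18 in CDP and 1 and 6 in LT-HSC. Both MDP groups held more of the regions than LMPP, and their counts overlapped. The 24 regions were merged from LMPP and IRF8KO MDP peaks. Wild-type MDP peaks outside them do not enter, which lowers the wild-type counts relative to IRF8KO MDP. The gained regions lay 3.39, 4.96, 32.6, 52.9, 62.3 and 71.3 kb downstream of the start. Those at 4.96, 32.6, 52.9 and 71.3 kb were also present in both wild-type MDP libraries, and those at 3.39 and 62.3 kb in neither. The region at 56.7 kb was shared by all 4 libraries and absent from LT-HSC. The 3 lost regions, at -20.9, 15.9 and 86.7 kb, were absent from both wild-type MDP libraries as well. Towards wild-type MDP, Irf8 had 11 gained and 4 lost of 27 regions. Without IRF8KO MDP replicate 1 the net count at Irf8 was 8, against 3.

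**Figure D3:**
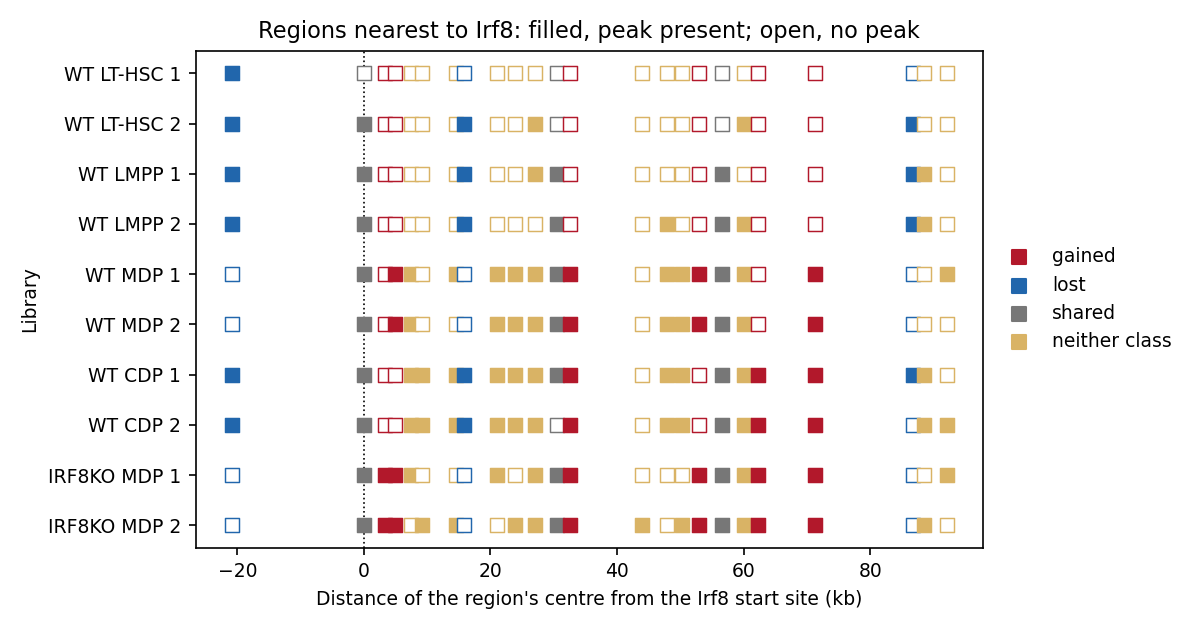
Regions nearest to Irf8 by distance of their centre from the gene's start (kb) in the 10 libraries; filled squares mark a peak, open squares none, and colors the class in the comparison of LMPP with IRF8KO MDP. Of 24 regions, the LMPP libraries have 8 and 9, the IRF8KO MDP libraries 14 and 17 and the wild-type MDP libraries 16 and 14.

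Of the gene lists, the stem cell list held the most lost regions. Mecom, a zinc finger factor needed for stem cell maintenance, had 27 lost and 0 gained among 38 regions. The LMPP libraries had a peak in 35 and 36 of them and the IRF8KO MDP libraries in 6 and 6. In wild-type MDP 11 and 11 were detected, in CDP 8 and 7, and in LT-HSC 9 and 24. The IRF8KO MDP libraries held the fewest regions of all 10, and 20 of the 27 lost regions had no peak in either wild-type MDP library, while 4 had one in both. Lost regions at Mecom ran over most of its 558 kb span, among them chr3:30010758-30013746 at an internal start, which also had a peak in both wild-type MDP libraries. In the step to wild-type MDP, Mecom had 21 lost and 0 gained of 39 regions.

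Meis1, a homeodomain factor of stem and progenitor cells, had 17 lost and 1 gained among 32 regions, with peaks in 28 and 28 in LMPP, 8 and 8 in IRF8KO MDP and 14 and 15 in wild-type MDP. Prdm16, a zinc finger factor related to Mecom, had 15 lost and 0 gained among 20 regions. Its peaks numbered 19 and 18 in LMPP, 1 and 2 in IRF8KO MDP and 6 and 5 in wild-type MDP. At both genes the IRF8KO MDP libraries thus held fewer regions than any other library but, for Prdm16, the difference from wild-type MDP was 3 to 5 regions. Gata2, a stem and mast cell factor, had 2 lost and 1 gained among 7 regions, and both lost regions, at 4.72 and 9.47 kb from its start, had a peak in both wild-type MDP libraries. The region at 4.72 kb overlapped a promoter window of another start.

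Over the 19 genes of the stem cell list with a region, 102 of 228 regions were lost and 17 gained, 44.7% and 7.46%. More members had net losses (12) than net gains (1), and the median was -1 against 0 over all genes. The 1 member with net gains was Erg, an ETS factor of stem cells and megakaryocytes, which had the largest net gain of any gene together with Nedd9. Erg had 10 gained and 0 lost among 33 regions, with peaks in 14 and 17 in LMPP, 31 and 29 in IRF8KO MDP, 26 and 25 in wild-type MDP and 6 and 14 in LT-HSC. Both wild-type MDP libraries detected 4 of the 10 gained regions and neither detected 4. The step to wild-type MDP had 65 lost and 15 gained of 234 regions over the list, and 8 gained and 0 lost of 32 at Erg. The list's net count of -85 was -52 with lists of equal length and -34 with the first 50% of each list.

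**Figure D4:**
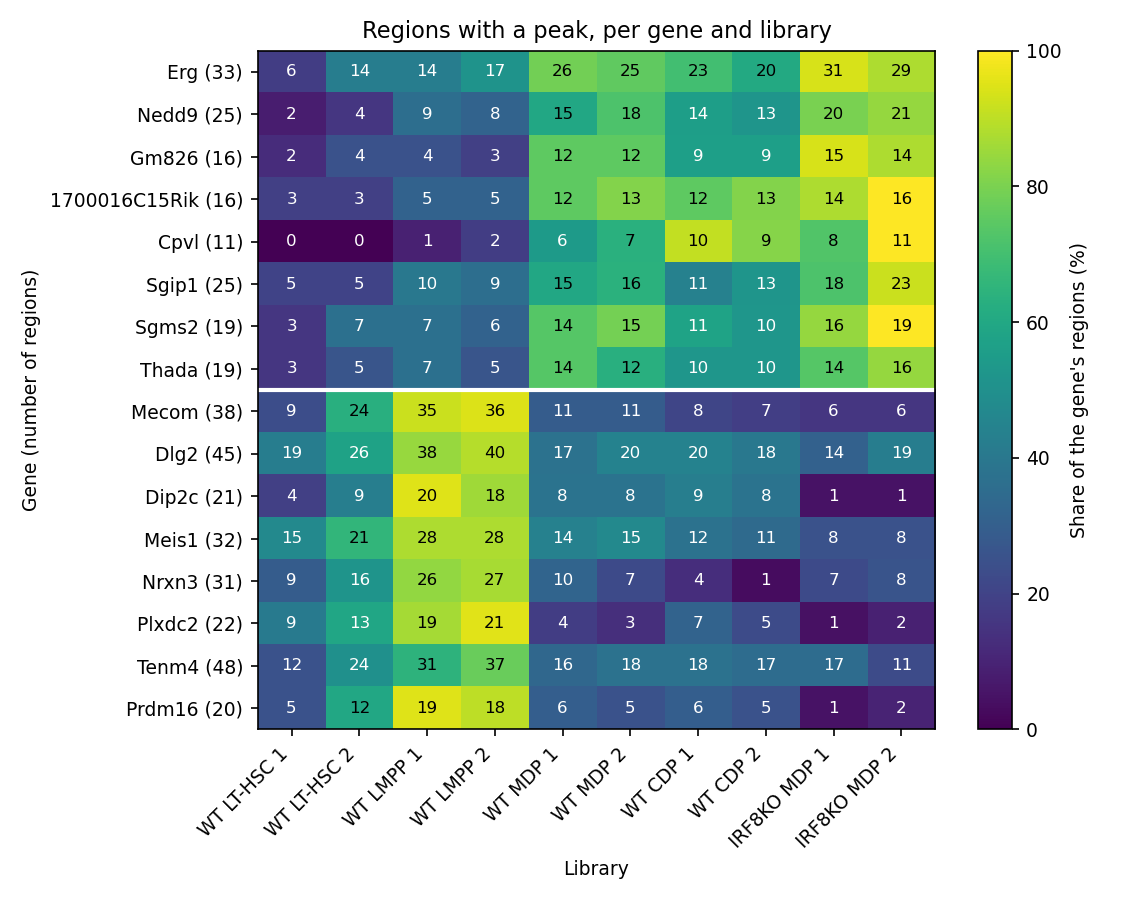
Number of regions with a peak in each of the 10 libraries (printed) and their share of the gene's regions (color) at the 8 genes of largest net gain (top) and the 8 of largest net loss (bottom) in the comparison of LMPP with IRF8KO MDP. At Mecom the LMPP libraries hold 35 and 36 of 38 regions and the IRF8KO MDP libraries 6 and 6, and at Erg 14 and 17 against 31 and 29 of 33.

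Apart from Mecom, Meis1 and Prdm16, the genes with the most net losses were large ones with a neuronal or other role. Dlg2, a synaptic scaffold gene, had 21 lost and 1 gained of 45 regions, and Nrxn3, which encodes a synaptic adhesion protein, 18 lost and 2 gained of 31. Plxdc2 had 16 lost of 22 and Tenm4, a teneurin, 18 lost and 2 gained of 48. Over the neuronal list, 97 of 225 regions were lost and 10 gained, 43.1% and 4.44%, and 10 of 11 members with a region had net losses. The step to wild-type MDP had 88 lost and 21 gained of 222 regions. Of the 97 lost regions, 78 had no peak in either wild-type MDP library. The list's net count of -87 was -59 with lists of equal length and -29 with the first 50% of each list.

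Of the 8 genes of largest net loss, Dip2c had the most lost regions that both wild-type MDP libraries detected. In all it had 16 lost and 0 gained among 21 regions, with peaks in 20 and 18 in LMPP, 1 and 1 in IRF8KO MDP, 8 and 8 in wild-type MDP, 9 and 8 in CDP and 4 and 9 in LT-HSC. Its lost regions with a peak in both wild-type MDP libraries numbered 6. Lpp and Clnk, an adaptor of immune receptor signaling, also had 6 such regions each. Genes were chosen by this count, so more regions in wild-type MDP than in IRF8KO MDP are partly built in. Clnk had peaks in 18 and 15 of 19 regions in LMPP, 4 and 6 in IRF8KO MDP and 13 and 13 in wild-type MDP. At Dip2c and Clnk, wild-type MDP lay between LMPP and IRF8KO MDP in every library. At Lpp, with 9 gained and 9 lost of 41, it did not: LMPP had 28 and 27, IRF8KO MDP 25 and 28, and wild-type MDP 32 and 27.

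Over the lymphoid priming list, 47 of 213 regions were lost and 14 gained, 22.1% and 6.57% against 18.3% and 10.3% over all genes, and 10 members had net losses against 5 with net gains. Bcl11a, a factor of B cell and dendritic cell development, had 15 lost and 3 gained of 48, with peaks in 36 and 40 in LMPP, 16 and 17 in IRF8KO MDP and 24 and 20 in wild-type MDP. Ikzf1, which encodes Ikaros, had 8 lost and 2 gained of 29. The T and NK cell list had 23 lost and 1 gained of 54 regions, 42.6% and 1.85%. Gata3, a T cell and innate lymphoid factor, accounted for 6 of these, with peaks in all 9 regions in both LMPP libraries, 3 and 3 in IRF8KO MDP and 7 and 4 in wild-type MDP. Bcl11b, a T cell commitment factor, accounted for 5. The B cell list had 7 lost and 2 gained of 35, 20% and 5.71%. The shares lost of the lymphoid priming and B cell lists were thus near that over all genes. The net count of the lymphoid priming list, -33, was -63 without LMPP replicate 1 and -16 with lists of equal length. That of the B cell list, -5, was -8 without LMPP replicate 2 or IRF8KO MDP replicate 2, -3 without IRF8KO MDP replicate 1 and -2 with equal length. That of the T and NK cell list, -22, was -6 with the first 50% of each list and -14 with genes assigned within 20 kb. In the step to wild-type MDP these lists had 35 lost and 19 gained (lymphoid priming), 16 and 4 (T and NK cell) and 4 and 5 (B cell).

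The erythroid list had 13 lost and 2 gained of 54 regions, 24.1% and 3.70% against 18.3% and 10.3% over all genes, with Ank1, an ankyrin of the red cell membrane, at 5 lost of 11. The megakaryocyte list had 14 lost and 4 gained of 73, 19.2% and 5.48%, and its share lost was near that over all genes. Of these, 6 lost regions lay at Fli1, an ETS factor, which had peaks in 22 and 22 of 28 regions in LMPP, 14 and 14 in IRF8KO MDP and 15 and 16 in wild-type MDP. With lists of equal length the net counts of both lists were -2, against -11 for the erythroid list and -10 for the megakaryocyte list with full lists. The erythroid count was -7 without IRF8KO MDP replicate 1, and the megakaryocyte count -15 without LMPP replicate 2.

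Neutrophil and granule genes gained regions. Over this list 20 of 71 regions were gained and 3 lost, 28.2% and 4.23% against 10.3% and 18.3% over all genes, and 13 of 20 members had net gains against 2 with net losses. Both wild-type MDP libraries detected 16 of the 20 gained regions and neither detected 3. From LMPP to wild-type MDP the list had 24 gained and 1 lost of 69 regions, so the list had more gained than lost regions in that step too. The regions of the list with a peak numbered 32 and 30 in LMPP, 51 and 57 in IRF8KO MDP, 51 and 54 in wild-type MDP, 43 and 39 in CDP and 12 and 32 in LT-HSC. Both MDP groups lay above LMPP without overlap, and they overlapped with each other. Peaks of wild-type MDP outside these regions are not counted, which lowers its values relative to IRF8KO MDP. The net count of the list, 17, stayed between 13 and 26 under every alternative tried, and was highest without IRF8KO MDP replicate 1.

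Ctsg, which encodes the granule protease cathepsin G, had 3 gained and 0 lost among 6 regions. LMPP libraries had a peak in 1 and 0 of them, IRF8KO MDP in 3 and 5, wild-type MDP in 3 and 5, CDP in 4 and 3 and LT-HSC in 0 and 0. The 3 gained regions lay at the start of the gene (chr14:56101982-56103053) and at 3.41 and -3.03 kb from its start, and each was present in both wild-type MDP and both CDP libraries. Csf3r, the G-CSF receptor, had 3 gained and 0 lost among 5 regions, of which 2 were present in both wild-type MDP libraries and 1 in neither. At S100a8, the region over the promoter (chr3:90668652-90669567) was present in both IRF8KO MDP, both wild-type MDP and both CDP libraries and in 1 LT-HSC library. At S100a9, 3 regions were gained, and 2 of these, among them the promoter region chr3:90695443-90696073, had no peak in either wild-type MDP library. That promoter region was present in both LT-HSC libraries.

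Of 21045 windows of 17274 genes, 127 windows of 115 genes overlapped a gained region and 697 windows of 624 genes a lost region. The neutrophil and granule list had 8 gained promoters (Camp, Ctsg, Elane, Fcnb, Lcn2, Ms4a3, S100a8 and S100a9) and 0 lost among 18 genes. These genes were named after their values were seen. The monocyte and macrophage list had 2 gained promoters of 16, those of Ccr2, a monocyte chemokine receptor, and F13a1, the factor XIII A chain, and 0 lost. Of the 115 genes with a gained promoter, 74 had that region in both wild-type MDP libraries and 25 in neither, and 4 had it in both LT-HSC libraries. Of the 8 neutrophil promoters, S100a9 was the 1 without a peak in either wild-type MDP library, and the other 7 had a peak in both. In CDP both libraries had the promoter region of Ctsg and S100a8, a single library that of Elane and Fcnb, and neither library that of Camp, Lcn2, Ms4a3 and S100a9. The promoter region of Camp, which encodes a cathelicidin, was present in both LT-HSC libraries.

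Lost promoters were open in stem cells more often than gained promoters and less often than shared ones. Both LT-HSC libraries had the region at 8803 of 9414 genes with a shared promoter and at 4 of 115 with a gained one. Of the 624 genes with a lost promoter, 313 had the region in both LT-HSC libraries and 154 in both wild-type MDP libraries. They included Gata2, Mecom and Tek of the stem cell list, Gp1ba, Itga2b and Selp of the megakaryocyte list, and 5 of 9 neuronal genes. From the lymphoid side came Rag1, the recombinase gene, Dntt, which encodes terminal transferase, and Lck, a T cell kinase. The promoter regions of Dntt and Lck had a peak in LMPP alone, and that of Rag1 in LMPP and 1 LT-HSC library.

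The share of windows with the C/EBP letters was higher among gained promoters. TTGCNNAA on either strand occurred in 30 of 127 gained windows, 23.6% (17.1 to 31.7), in 7.46% (5.73 to 9.65) of 697 lost windows, in 7.88% of 11121 shared windows and in 10.3% of all 21045 windows. Among the neutrophil promoters, it began at -235 and -123 bases from the start of Fcnb, at -216 from that of Lcn2, at -236 from that of S100a9 and at 41 from that of Ms4a3. The other 4 gained neutrophil promoters did not hold it, and those of Ctsg and Camp held neither the C/EBP nor the PU.1 letters. The AP-1 letters TGANTCA were in 12.6% (7.91 to 19.5) of gained, 5.16% of lost and 7.04% of all windows. The PU.1 letters GAGGAAGT were in 6.30% (3.23 to 11.9) of gained, 2.44% of lost and 3.15% of all windows. The ETS-IRF composite, GGAA and GAAA separated by any 2 bases, was in 3.94% of gained, 3.73% of lost and 2.55% of all windows. The interferon response letters, GAAA repeated after any 2 bases, were in 3.15%, 4.02% and 3.38%. The GATA letters AGATAA were in 13.4%, 8.90% and 9.68%, and the RUNX letters TGTGGT in 15.0%, 14.2% and 14.7%. The composite shares its GGAA with the PU.1 letters and its GAAA with the interferon response letters, so 1 stretch can count under more than 1 motif. All intervals are 95% Wilson intervals and cover counting error only; windows of a gene can overlap, and neighbouring genes can share a region. With the 200 bases nearest the gene, the C/EBP letters were in 17.3% of gained, 4.02% of lost and 6.27% of all windows.

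**Figure D5:**
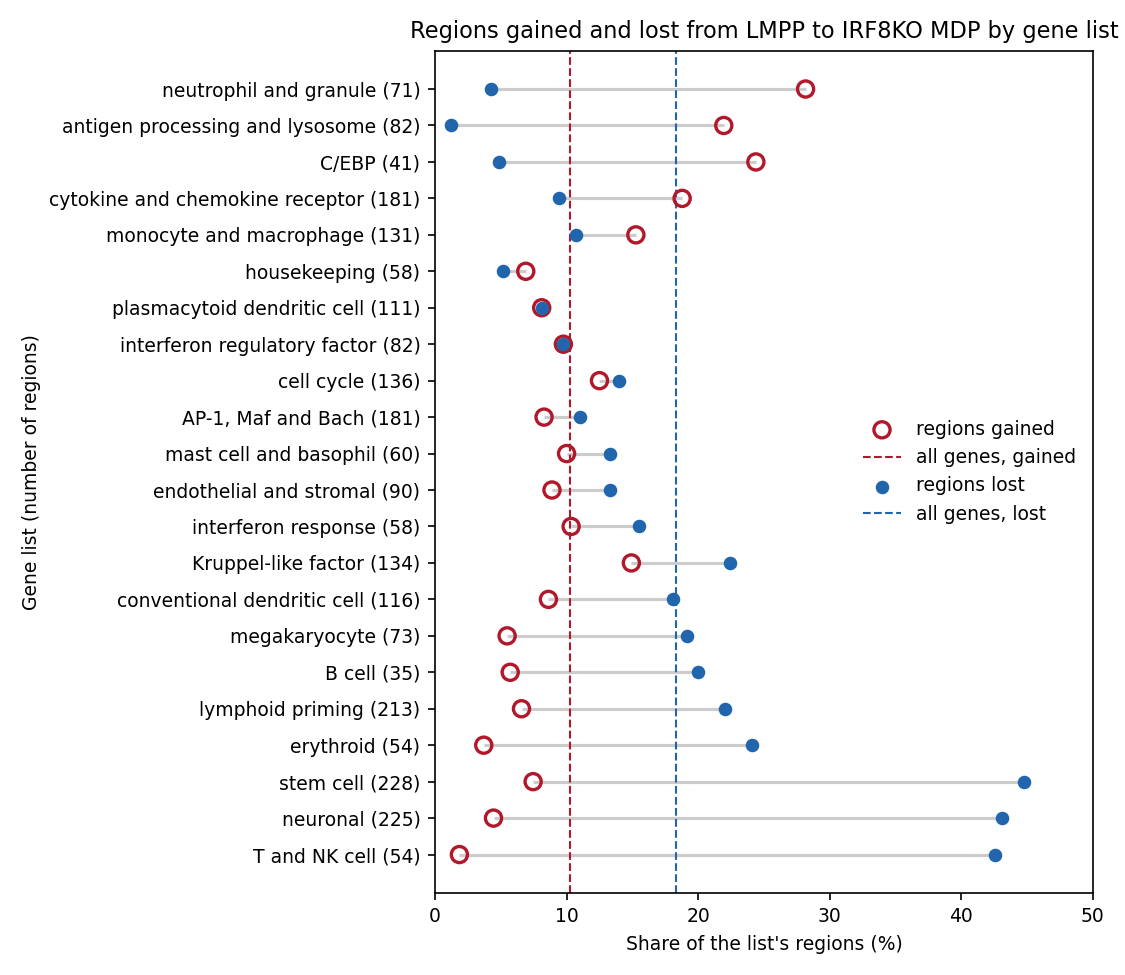
Percent of the regions of each gene list that were gained (open circles) or lost (filled circles) from LMPP to IRF8KO MDP, with the number of regions in brackets and dashed lines for all genes (10.3% gained, 18.3% lost). The neutrophil and granule list lies at 28.2% gained and 4.23% lost, and the stem cell list at 7.46% and 44.7%.

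Some monocyte genes gained regions too. The monocyte and macrophage list had 20 gained and 14 lost of 131 regions, 15.3% and 10.7%. Of its 20 members, 7 had net gains, 2 (Zeb2 and Klf4) net losses and 11 neither, with a median of 0. Fcgr3, an activating Fc receptor, had 4 gained and 0 lost among 8 regions, with peaks in 3 and 2 in LMPP, 7 and 6 in IRF8KO MDP and 5 and 4 in wild-type MDP. Zeb2, a zinc finger factor of monocyte and dendritic cell fate, supplied 9 of the 14 lost regions and had 1 gained. Its peaks numbered 19 and 18 of 22 regions in LMPP, 6 and 8 in IRF8KO MDP, 7 and 8 in wild-type MDP and 11 and 17 in LT-HSC. Of the 9 regions lost at Zeb2, 8 had no peak in either wild-type MDP library. Klf4, a monocyte factor, had 1 lost and 0 gained of 7 regions. The list's net count was 16 with lists of equal length, 1 with the first 50% of each list, 14 without IRF8KO MDP replicate 1, 4 without its replicate 2, 0 without LMPP replicate 1 and 3 without LMPP replicate 2. The step to wild-type MDP had 30 gained and 13 lost of 151 regions.

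Lysosomal and antigen processing genes gained regions with few losses. This list had 18 gained and 1 lost of 82 regions, 22.0% and 1.22%, and 10 members had net gains and 0 net losses. Lgmn, the lysosomal protease legumain, had 5 gained and 0 lost among 8 regions, with peaks in 3 and 3 in LMPP, 8 and 8 in IRF8KO MDP and 6 and 7 in wild-type MDP. Tfeb, a factor that controls lysosomal genes, had 3 gained of 11. From LMPP to wild-type MDP the list had 21 gained and 1 lost of 88 regions. The cytokine and chemokine receptor list had 34 gained and 17 lost of 181 regions, 18.8% and 9.39%. Cxcr4, which retains progenitors in the marrow, had 8 gained and 1 lost of 22, with peaks in 8 and 13 in LMPP, 18 and 17 in IRF8KO MDP and 16 and 18 in wild-type MDP. Ifngr1, an interferon gamma receptor chain, had 4 gained and 1 lost of 16. The step to wild-type MDP had 47 gained and 9 lost of 210 over that list. Its net count of 17 was 35 with lists of equal length and 11 with genes assigned within 20 kb.

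Genes of C/EBP factors gained regions, most of them at Cebpb. The C/EBP list had 10 gained and 2 lost of 41 regions, 24.4% and 4.88% against 10.3% and 18.3% over all genes. The step to wild-type MDP had 6 gained and 3 lost of 33. Cebpb had 7 gained and 1 lost among 23 regions, with peaks in 13 and 14 in LMPP, 19 and 20 in IRF8KO MDP, 17 and 17 in wild-type MDP and 17 and 16 in CDP. The 7 gained regions lay 21.6 to 84.2 kb downstream of its start, and 4 were present in both wild-type MDP libraries and 3 in neither. Since they are distal, no net gain was left at Cebpb, and 1 for the list, when genes were assigned within 20 kb. Cebpa had 1 gained region of 11, at 25.7 kb downstream and absent from both wild-type MDP libraries, and Cebpe 1 gained of 4.

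The conventional dendritic cell list had 10 gained and 21 lost of 116 regions, 8.62% and 18.1%, close to the shares over all genes, and 7 members had net losses against 5 with net gains. From LMPP to wild-type MDP the same list had 26 gained and 9 lost of 146. Both wild-type MDP libraries detected 10 of the 21 lost regions, and over all genes they detected 3288 of 14736. The regions of the list with a peak numbered 88 and 96 in LMPP, 69 and 81 in IRF8KO MDP, 92 and 91 in wild-type MDP and at least 99 in each CDP library. The IRF8KO MDP libraries thus lay below every LMPP, wild-type MDP and CDP library, and their lists were also the shortest of these groups. The net count of -11 was -19 without LMPP replicate 1, -18 without IRF8KO MDP replicate 2, -5 with the first 50% of each list and -3 with lists of equal length.

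Ciita, the coactivator that switches on MHC class II genes, had 5 lost and 0 gained among 8 regions. LMPP libraries had a peak in 6 and 7 of them, IRF8KO MDP in 0 and 2, wild-type MDP in 4 and 5, CDP in 6 and 6 and LT-HSC in 1 and 4. IRF8KO MDP lay below every LMPP, wild-type MDP and CDP library. The lost regions at chr16:10475864-10476373, chr16:10487449-10488545 and chr16:10489363-10490225 were present in both wild-type MDP and both CDP libraries, and the other two lost regions were absent from both wild-type MDP libraries. The net count at Ciita stayed between -6 and -4 under every alternative tried. Wdfy4, needed for cross-presentation by dendritic cells, had 5 lost and 0 gained among 10 regions, with peaks in 8 and 9 in LMPP, 3 and 5 in IRF8KO MDP, 7 and 9 in wild-type MDP and 8 and 8 in CDP. At the MHC class II gene H2-Eb1, chosen after its values were seen, a region over the promoter (chr17:34304770-34306032) was lost. It was present in both LMPP, both wild-type MDP and both CDP libraries and in neither IRF8KO MDP library. The class II genes on the list differed from this. H2-Aa had 2 lost of 4 regions, 0 of them present in both wild-type MDP libraries. H2-Ab1 had 1 lost of 3, absent from both wild-type MDP libraries, and Cd74 had 0 gained and 0 lost of 2.

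Genes of plasmacytoid dendritic cells had 9 gained and 9 lost of 111 regions, 8.11% and 8.11% against 10.3% and 18.3% over all genes. In the step to wild-type MDP they had 19 gained and 7 lost of 118. The net count of 0 was 8 with lists of equal length and -9 without LMPP replicate 2. Tcf4, the E protein that sets plasmacytoid identity, had 4 gained and 1 lost of 33, and Runx2 4 gained and 4 lost of 34. The direction at Tcf4 turned with the first 50% of each list, where the net count was -2.

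Other genes of the progenitor program and related lists follow. Over all genes, 10.3% of regions were gained and 18.3% lost. Spi1, which encodes PU.1, had 2 gained and 0 lost of 7 regions, 1 in both wild-type MDP libraries and 1 in neither. Flt3, the CD135 receptor used to sort LMPP, had 2 gained and 0 lost of 13, and Kit, the CD117 receptor of both sorts, 1 gained and 2 lost of 11. Csf1r, the CD115 receptor used to sort MDP, had a peak in all 3 of its regions in both LMPP and both IRF8KO MDP libraries, so its regions do not separate the stages here. The interferon regulatory factor list, Irf8 included, had 8 gained and 8 lost of 82 regions, 9.76% and 9.76%. Its net count was 9 without IRF8KO MDP replicate 1. The Kruppel-like factor list had 20 gained and 30 lost of 134, 14.9% and 22.4%, both above the shares over all genes. Klf12 alone supplied 10 of the lost, with 1 gained. That list's net count of -10 was -6 without IRF8KO MDP replicate 1 and -2 with lists of equal length. The AP-1, Maf and Bach list had 15 gained and 20 lost of 181, 8.29% and 11.05%. Of these, 11 lost lay at Bach2, which encodes a transcriptional repressor active in lymphoid cells. The net count of this list was 7 with lists of equal length. The interferon response list had 6 gained and 9 lost of 58, 10.3% and 15.5%.

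The remaining lists held similar numbers of gained and lost regions, while over all genes 10.3% of regions were gained and 18.3% lost. The cell cycle list had 17 gained and 19 lost of 136 regions, 12.5% and 14.0%. The mast cell and basophil list had 6 and 8 of 60, 10% and 13.3%. The endothelial and stromal list had 8 and 12 of 90, 8.89% and 13.3%, and the housekeeping list 4 and 3 of 58, 6.90% and 5.17%. Each share lost was below that over all genes. For these 4 lists, the direction turned under at least 1 alternative. Most endothelial and stromal genes were not at 0, Vcam1 in LMPP being at 0 and 0: Pecam1 had peaks in 5 and 6 regions in LMPP and 7 and 9 in IRF8KO MDP of 14, and the summed regions of the list were 58 and 59 in LMPP and 49 and 55 in IRF8KO MDP. Whether other cell types in the sorted cells had a part in the results was not tested.

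Some genes gained regions that were absent from wild-type MDP. Sox5 had 6 such regions among 7 gained and 8 lost of 37, and Ednra, Rhoj and Tshz2 had 5 each. Ednra, the endothelin A receptor gene, had 6 gained and 2 lost among 12 regions, with peaks in 4 and 5 in LMPP, 10 and 9 in IRF8KO MDP, 0 and 2 in wild-type MDP, 0 and 0 in CDP and 1 and 3 in LT-HSC. IRF8KO MDP lay above every other library at this gene. These genes were chosen for gained regions absent from wild-type MDP, so the order against LMPP and wild-type MDP is partly built in. Rhoj, a small GTPase gene, had 6 gained and 0 lost among 11 regions, with peaks in 3 and 3 in LMPP, 11 and 9 in IRF8KO MDP, 4 and 4 in wild-type MDP and 3 and 2 in CDP. Tshz2 had 8 gained and 7 lost of 36, and without LMPP replicate 1 its net count was -3 against 1.

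The other genes with the most net gains were mostly open in wild-type MDP too. Nedd9, an adhesion scaffold gene, had 11 gained and 1 lost among 25 regions, with peaks in 9 and 8 in LMPP, 20 and 21 in IRF8KO MDP and 15 and 18 in wild-type MDP, and 7 of its 11 gained regions were in both wild-type MDP libraries. Cpvl, a serine carboxypeptidase gene of myeloid cells, had 8 gained and 0 lost among 11, with peaks in 1 and 2 in LMPP, 8 and 11 in IRF8KO MDP, 6 and 7 in wild-type MDP, 10 and 9 in CDP and 0 and 0 in LT-HSC. Gm826 had 9 gained of 16, Thada 9 gained and 1 lost of 19, Sgip1 10 gained and 2 lost of 25, 1700016C15Rik 8 gained of 16 and Sgms2, a sphingomyelin synthase gene, 8 gained of 19. Every IRF8KO MDP library had more regions with a peak than either LMPP library at each of these 7 genes, which the choice by net gain favours. In the step to wild-type MDP the same genes had 5 to 11 gained and 0 to 2 lost regions. In the plot of regions per gene and library, the 8 genes of largest net gain hold more regions in every wild-type MDP and CDP library than in either LMPP library.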

How the data were processed

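Each library had its own deposited peak list, called without a control. The submitters' processing notes name Bowtie 1.1.2, HOMER 4.9 and the builds mm10 and GRCm38. Per the file headers, the authors called peaks with peak size 500 bp, peaks at least 1000 bp apart, FDR 0.001, 4-fold enrichment over the local 10000 bp and no more than 1 tag per position. These values did not differ between the 10 lists. The sources used here do not say whether reads were shifted for the transposase. In the deposited lists every peak has a score of 1, so the score carried no strength, and the lists hold no tag counts per peak. The measure compared is therefore detection of a peak.

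With Python 3.11.15, pandas 2.3.3, NumPy 2.4.6 and SciPy 1.17.1, peaks were merged at an overlap of 1 bp, and each region's centre was assigned to the nearest of 21631 protein-coding gene spans within 100 kb (RefSeq, GRCm38.p6, the assembly of mm10). Distances to a start used the RefSeq promoter table, in which some genes, Ciita and Spi1 among them, and chromosome 18 have no entry. Coordinates are 1-based in mm10. No blacklist was used. No single region can be tested with 2 libraries per group, so counts are descriptions, and only values per library were tested, by exact permutation. Merging and the classes of regions were tested on simulated data.

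The regions, the 22 gene lists (332 entries, 314 distinct genes, 331 matched, Mx2 being the other) and the genes were chosen with earlier results of these data known. Genes named in the text were those with the 8 largest net gains and losses, 10 fixed genes, 2 members of each list with the most gained plus lost regions, those nearest to the 5 earliest gained and lost regions, and the 4 with the most gained regions in neither and the 4 with the most lost regions in both wild-type MDP libraries; 1 gene chosen by this rule is not reported here. The motif shares planned for regions need a genome and were not run. The search of promoter windows, and the promoters printed, were chosen after seeing the data. Alternatives were equal list length, the first 50% of each list, an overlap of 200 bp, merging over all 10 lists, each library left out, 20 kb for genes and 2.5 kb for gene ends.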

Additional observations from a re-analysis of the deposited data

How the results depend on the processing

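The planned motif shares of regions were not run. No paired analysis was possible because the gained and lost regions come from no test and 2 libraries per group share only a number. An overlap of 200 bp or merging all 10 lists left every count of regions and genes within 1.5 times. Using the first 50% of each list gave 4864 gained and 9470 lost regions. Leaving out 1 library gave 10481 to 13851 gained and 19133 to 23564 lost regions.

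For detection in wild-type MDP, equal list length gave 56.09% of gained and 21.81% of lost regions, the first 50% of each list 25.72% of lost, and leaving out a library 53.57 to 67.73% and 25.77 to 35.74%. In CDP these values were 38.49% and 24.3%, 29.36% of lost, and 41.41 to 50.17% and 29.48 to 37.52%. Gained regions within 1 kb of a gene end were 5.474% with equal length, 9.293% with the first 50%, 4.848 to 5.42% without a library, and 11.77% at 2.5 kb. Lost ones were 6.771%, 10.49%, 6.166 to 6.836% and 10.71%. Of 22 lists, 6 had more gained than lost regions, 12 with equal length and 4 to 11 without a library. The C/EBP letters were in 4.017% of lost promoters in the 200 bases nearest the gene.

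Net counts turned sign with equal length for the mast cell (2), endothelial (3), AP-1 (7) and cell cycle (3) lists and Kit (1), Klf13 (2) and Vwf (2). They turned with the first 50% for the cell cycle (3) and housekeeping (-2) lists, Tcf4 (-2) and Kit (1), and at 20 kb for the endothelial (1) and housekeeping (-1) lists, Klf13 (1) and Cdk6 (1). Without IRF8KO MDP replicate 1 they turned for the mast cell (3; -5 to 3 over the libraries left out), endothelial (4; -11 to 4) and cell cycle (5; -3 to 5) lists and Vwf (2), and without replicate 2 for Cop1 (-1). Without LMPP replicate 1 they turned for the housekeeping list (-2), Jun (-1) and Tshz2 (-3), and without replicate 2 for the housekeeping list (-4) and Tshz2 (-1). The cause of these changes was not tested. With 2 libraries a group and no counts per peak, changes in the strength of a shared peak were not measurable.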
